A study of Mus musculus with 14 samples.

Results

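The MYC, MAX and MXD network is a set of basic helix-loop-helix leucine zipper transcription factors, and its levels were followed here in cultured mouse T helper 2 (Th2) cells. The 10 genes described are Myc, Mycn, Max, Mxd1, Mxd3, Mxd4, Mxi1, Mnt, Mga and Mlx, out of 22598 genes in the deposited tables. They were chosen by name as members of the network, with their CPM (counts scaled to a common library total) in the 4 groups of these data already in view, so their levels and differences are given as a description. All 10 were among the 11591 genes that passed the filter on low counts and entered the fit.

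The cells were naive CD4+ T cells from the spleens of C57BL/6J mice, activated and cultured under Th2 conditions. They were wild type (WT) or carried the genotype named Ago134 in the labels, a knockout (KO) of the Argonaute genes Ago1, Ago3 and Ago4, which encode proteins that bind small RNAs. There were 4 WT and 4 KO libraries at day 7, and 3 WT and 3 KO libraries at day 14, made from total RNA. The sample labels gave day 14, while the series text named both day 14 and day 15 for the later time, and it described the mice as littermates. Nothing in the labels ties libraries to mice or cultures, so the p-values measure only the spread between these libraries, which may be technical.

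MYC and MYCN activate transcription as dimers with MAX, and MXD1, MXD3, MXD4, MXI1 and MNT compete for MAX and bring histone deacetylase corepressors to the same E-box DNA elements. MGA, a very large protein, also pairs with MAX and belongs to a Polycomb-type repressor complex, and MLX is a MAX-like partner of MXD1, MXD4, MNT and the glucose-responsive MONDO proteins. In T cells, MYC is switched on by antigen receptor and cytokine signals and drives growth, metabolism and entry into the cell cycle. MXD proteins are best known from cells that stop dividing and differentiate, with MXD3 as an exception that is made in dividing cells.

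Total counts ran from 23326248 to 35803197 per library. Ago1 had 67 to 141 counts in every WT library, 0 counts in 6 KO libraries and 2 counts in KO day 14 replicate 3, so the genotype labels held. The 6 T cell markers together stood at 3761 to 9292 CPM, so T cells were present in every library, and no Th2 gene was checked here. The 2 markers of CD8 T cells summed to 6.32 to 10.2 CPM in WT libraries and 10.5 to 21.0 CPM in KO libraries. Nearly all of that sum was Cd8b1. Cd8a had at most 10 counts in any library and 0 in every WT day 14 library. WT day 14 replicate 3 stood apart from the other 2 WT day 14 libraries: 10 cell division genes (Mki67, Top2a, Ccnb1, Ccna2, Cdk1, Birc5, Bub1, Plk1, Cdc20 and Aurkb) summed to 533 CPM in it and to 89.4 and 96.5 CPM in the others. The identifiers in the file names fell into 2 series: all KO day 14 libraries, WT day 14 replicates 1 and 3 and WT day 7 replicate 1 carried one series, and the other 8 libraries the other. KO day 7 and KO day 14 therefore shared no series, and day and series cannot be told apart within the KO. A model term for the series rests on the WT libraries alone, so KO calls kept or lost with it cannot separate series from day. In these bulk samples, fewer cells of a type and less RNA per cell cannot be told apart either.

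The 4 promoters shown are those of the 3 genes with the widest range of levels across libraries and of Mxd4, a member with a flat level whose promoter holds an E-box. Each is the 250 bases before the RefSeq start site (GRCm38.p6), all 4 on the minus strand, written 5′ to 3′, with matches on either strand in capitals. The letters searched were CACGTG (E-box), TTTGGCGC or TTTCCCGC (E2F site), TTTGAA or TTCGAA (cell cycle homology region, CHR) and CCAAT (bound by the factor NF-Y). No match overlapped another.
Mycn, chr12:12941837-12942086: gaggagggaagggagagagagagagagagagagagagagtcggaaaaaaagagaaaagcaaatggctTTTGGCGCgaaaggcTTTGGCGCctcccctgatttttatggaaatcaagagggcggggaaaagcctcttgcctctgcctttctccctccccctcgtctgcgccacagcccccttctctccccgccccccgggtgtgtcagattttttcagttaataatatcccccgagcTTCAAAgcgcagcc
Mxd1, chr6:86669160-86669409: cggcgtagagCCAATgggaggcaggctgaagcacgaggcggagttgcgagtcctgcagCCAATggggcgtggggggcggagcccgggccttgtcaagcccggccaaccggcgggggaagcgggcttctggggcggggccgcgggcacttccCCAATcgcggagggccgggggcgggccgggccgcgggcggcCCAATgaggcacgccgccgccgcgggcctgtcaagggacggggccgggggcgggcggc
Mxd3, chr13:55329732-55329981: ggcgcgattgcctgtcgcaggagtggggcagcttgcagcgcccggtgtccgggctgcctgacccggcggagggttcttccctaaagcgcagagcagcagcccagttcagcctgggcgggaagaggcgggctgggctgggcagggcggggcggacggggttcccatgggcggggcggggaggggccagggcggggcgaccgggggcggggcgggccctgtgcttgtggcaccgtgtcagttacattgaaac
Mxd4, chr5:34187711-34187960: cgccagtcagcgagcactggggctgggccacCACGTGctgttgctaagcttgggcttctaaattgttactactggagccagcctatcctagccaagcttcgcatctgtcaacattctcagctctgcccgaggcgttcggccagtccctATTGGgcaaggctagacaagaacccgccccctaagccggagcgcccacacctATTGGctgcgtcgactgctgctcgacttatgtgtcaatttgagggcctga

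The Mycn window held the E2F letters 2 times and 1 CHR match, the Mxd1 window held 4 CCAAT boxes, and the Mxd3 window held none of these letters. Promoters were found for 9 of the 10 members. CACGTG was present for 3 of the 9, Mxd4, Mnt and Mlx, and for 6.86% of the 27025 genes with a promoter window of that length. The E2F letters were present for 1.51% of all these genes and for Mycn alone among the members. CCAAT was present for 37.5% of all genes and for Mxd1, Mxd4 and Mlx, and the CHR letters for 19.6% of all genes and for Mycn. A match is a string of letters only, and binding was not measured here.

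Per length, Myc was the most abundant of the 10 genes in every group. Its deposited RPKM (reads per kilobase of counted sequence, scaled to library size) was 187 ± 16.9 (SD, n = 4) in WT day 7, 175 ± 27.3 (n = 4) in KO day 7, 157 ± 39.3 (n = 3) in WT day 14 and 304 ± 67.7 (n = 3) in KO day 14. At day 7 the next levels were those of Mlx (22.7 RPKM in WT), Mxd4 (18.2), Mxi1 (16.0) and Mxd1 (7.66), and only Mxd4 and Mxi1 overlapped as neighbours among these. Max, the shared partner, was near the bottom at 1.55 RPKM in WT day 7, with Mga at 1.77, Mycn at 0.862, Mnt at 0.733 and Mxd3 at 0.441 RPKM. At day 14 Mxd1 was next to Myc in both genotypes, at 73.6 ± 10.2 RPKM in WT and 61.4 ± 12.9 RPKM in KO, and its libraries did not overlap with those of Mlx below it. In KO day 14 Mxd3 reached 20.1 ± 9.56 RPKM, where its libraries overlapped with those of Mxd4 and Mxi1.

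**Figure D1:**
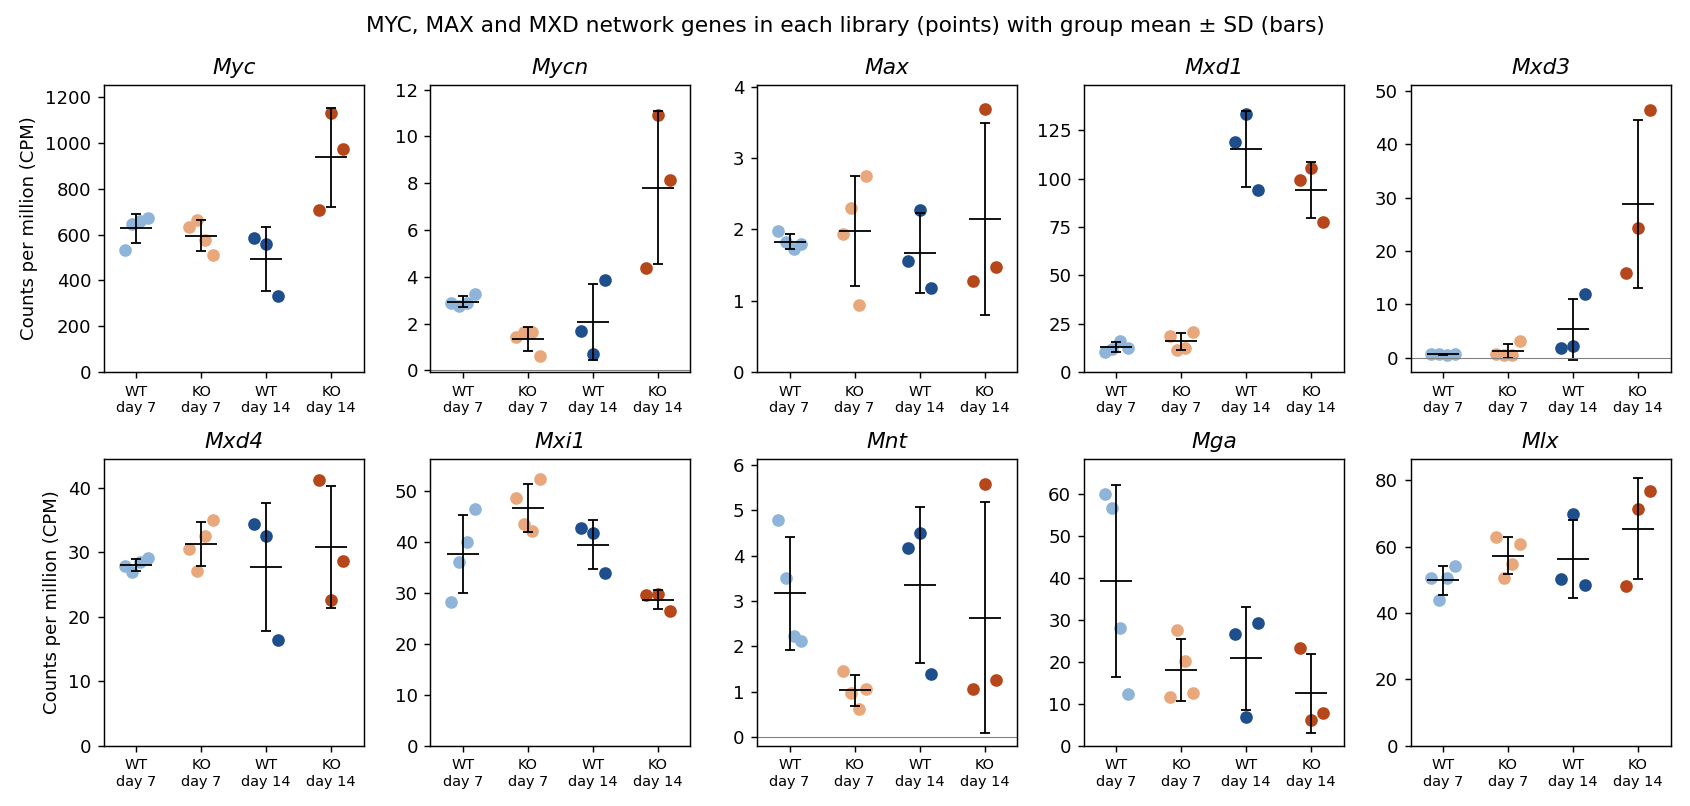
CPM of each of the 10 genes (vertical axes, each from its own scale) in the 14 libraries, by genotype and day; points are libraries and bars the group mean ± SD. Mxd1 is at 77.6 to 133 CPM in all 6 day 14 libraries and at 10.6 to 20.7 CPM in all 8 day 7 libraries, and Myc is highest in the 3 KO day 14 libraries, at 706 to 1131 CPM.

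Myc was similar in the 2 genotypes at day 7 and separated at day 14. WT day 7 libraries had 532, 645, 658 and 671 CPM, and KO day 7 libraries 632, 663, 574 and 509 CPM. WT day 14 libraries had 585, 559 and 332 CPM, and KO day 14 libraries 706, 1131 and 973 CPM. The day 7 groups overlapped, whereas every KO day 14 library lay above every other library, and the lowest of all was WT day 14 replicate 3. In the fit over all genes (edgeR quasi-likelihood test, Benjamini-Hochberg adjustment), the KO over WT log2 fold change at day 14 was 0.93 ± 0.23 (SE), with an adjusted p of 0.0599. Without WT day 14 replicate 3 the difference was 0.71 with an adjusted p of 0.0259, without KO day 14 replicate 1 it was 1.10 with 0.0250, and without KO day 7 replicate 4 it was 0.94 with 0.0427. This genotype difference was called in 7 of the 25 alternative analyses that give a p, and its adjusted p ran up to 0.457 over all of them. Leaving out WT day 14 replicate 3 also raised the count of calls over all genes from 165 to 2640. From day 7 to day 14 Myc rose 1.58-fold in the KO (log2 0.66 ± 0.21, adjusted p = 0.0489), a call that ended in 17 of the 25 alternative analyses that give a p, including those without any 1 of the 8 day 7 libraries, WT day 14 replicate 2 or KO day 14 replicate 2 or 3. In WT the day difference was -0.35 ± 0.21 (adjusted p = 0.284). With the trend over coding GC content and length removed, it was -0.70 with an adjusted p of 0.00228, and the day 14 genotype difference was 1.17 with 0.00166. Markers of mast cells also differed between the day 14 genotypes: 5 of them summed to 1.07 to 5.69 CPM in WT and 22.5 to 130 CPM in KO, with Kit and Cpa3 higher in KO and 3 of the 5 at 0 counts in every KO day 14 library. The Cpa3 call ended without WT day 14 replicate 1 or 2, and the Kit call without replicate 1. Their part in the Myc difference was not tested.

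Mycn, the other MYC-family activator among the 10, was far less abundant and followed the same order at day 14. It had 2.87, 2.73, 2.87 and 3.26 CPM in WT day 7 and 1.42, 1.66, 1.66 and 0.620 CPM in KO day 7. WT day 14 libraries had 1.67, 0.701 and 3.86 CPM, and KO day 14 libraries 4.37, 10.9 and 8.14 CPM. KO lay below WT in every day 7 library and above it in every day 14 library. Neither genotype difference passed the test over all genes: the log2 fold change was -1.12 ± 0.47 at day 7 (adjusted p = 0.178) and 1.90 ± 0.54 at day 14 (adjusted p = 0.0789). Without WT day 14 replicate 3, the highest of its group, the day 14 difference was 2.72 with an adjusted p of 0.00546. That difference was called in 3 of the 24 alternative analyses that give a p, with adjusted p up to 0.471 over all of them. Mycn rose 5.79-fold from day 7 to day 14 in the KO (log2 2.53 ± 0.50, adjusted p = 0.00332). Another gene of the family, Mycl, had a group mean of at most 0.738 CPM (WT day 14) and 0.0161 CPM in WT day 7, a day difference that passed the test (adjusted p = 0.00363).

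Max, the obligate partner, was nearly level in these counts. It ranged from 0.940 to 3.69 CPM over the 14 libraries (30 to 112 counts), and its group means ran from 1.67 CPM in WT day 14 to 2.15 CPM in KO day 14. Groups overlapped in all 4 pairwise comparisons, and the fitted log2 differences lay between -0.13 and 0.36. Its level rests on few reads. At 483 counted bases Max was the shortest of the 10 genes as counted, but it was also low per length. In WT day 7 it had 1.55 RPKM, beside 18.2 RPKM for Mxd4 with 630 counted bases. The cause of the low Max counts was not tested.

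Mxd1 showed the clearest difference between days. WT day 7 libraries had 10.6, 12.0, 16.2 and 12.7 CPM and KO day 7 libraries 18.5, 11.5, 12.5 and 20.7 CPM. WT day 14 libraries had 119, 133 and 94.1 CPM and KO day 14 libraries 99.3, 105 and 77.6 CPM. All day 14 libraries lay above all day 7 libraries, and the genotypes overlapped on both days. Mxd1 rose 8.96-fold in WT (log2 3.16 ± 0.25, adjusted p = 4.03e-06) and 5.95-fold in KO (log2 2.57 ± 0.25, adjusted p = 4.37e-05). It was called in both genotypes under every alternative analysis, with adjusted p up to 0.000186 in WT and 0.00178 in KO. With a term for the 2 identifier series the KO difference was 2.92, and within each series the WT difference in mean log2(CPM + 0.5) was 3.25 and 3.27. The sum of myeloid cell markers moved with it: the 6 myeloid markers summed to 1.17 to 7.35 CPM at day 7 and 8.59 to 30.0 CPM at day 14. Most of that sum was Adgre1, at 12.9 CPM in WT day 14 and 18.7 CPM in KO day 14. Itgam had 0 counts in all 14 libraries and Csf1r at most 10 counts in any of them. Of the 4 that entered the fit, Adgre1, Cd68 and Cd14 were called higher at day 14 in WT, and Adgre1 and Cd68 in KO. Calls over all genes were 20.5% in WT and 15.5% in KO. The Cd68 call in KO ended in 6 of the 24 alternative analyses that give a p, among them the series term. The 4 markers of natural killer cells summed to 1.19 to 6.48 CPM at day 7 and 10.8 to 42.1 CPM at day 14. Nearly all of that sum was Eomes, a T-box factor also made in T cells, which rose 6.70-fold in WT and 16.5-fold in KO (adjusted p = 0.000584 and 0.000112). Ncr1 had 0 counts in all 14 libraries, and Klrb1c and Klrk1 had at most 2 in any. The mast cell markers moved the other way in WT, from 30.5 to 64.6 CPM at day 7 to the day 14 range given above, with Kit and Cpa3 called. The part of these cells in the Mxd1 difference was not tested.

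Mxd3 was low at day 7 and had the widest range of the 10 genes over the libraries. It had 0.696, 0.651, 0.543 and 0.794 CPM in WT day 7 and 0.731, 0.473, 0.439 and 3.19 CPM in KO day 7, which is 14 to 72 counts. WT day 14 libraries had 1.90, 2.24 and 11.9 CPM and KO day 14 libraries 15.9, 24.2 and 46.3 CPM. The high library of KO day 7 was replicate 4 and that of WT day 14 was replicate 3, and every KO day 14 library lay above both. Mxd3 rose in the KO by log2 4.60 ± 0.78 (24.2-fold, adjusted p = 0.00123) and in WT by log2 2.99 ± 0.75 (adjusted p = 0.0116). Without WT day 14 replicate 3 the WT difference was 1.62 with an adjusted p of 0.0800. The genotype difference at day 14 was log2 2.43 ± 0.78 (adjusted p = 0.115), and without that library it was 3.80 with an adjusted p of 0.00734. It was called in 3 of the 25 alternative analyses that give a p, with adjusted p up to 0.464 over all of them.

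The level of Mxd3 went with that of cell division genes from library to library. The 10 division genes summed to 64.7 to 75.9 CPM in WT day 7, 71.1 to 150 CPM in KO day 7, 89.4 to 533 CPM in WT day 14 and 623 to 1454 CPM in KO day 14, with the highest sums of KO day 7 and WT day 14 in the same 2 libraries that were high in Mxd3. Of 8217 genes with a mean of at least 5 CPM, those most like Mxd3 over the 14 libraries were Troap (Pearson r = 0.994), Cdk1 (0.993) and Aurka (0.993) on the log2(CPM + 0.5) scale. Cdk1 and Aurka are kinases of mitosis. The correlations are descriptions over libraries that share depth, group and day. Of the 10 division genes, 9 rose from day 7 to day 14 in the KO and 5 in WT, beside 15.5% and 20.5% of all genes called. Of the 9 called in the KO, Cdc20 alone stayed called with a term for the identifier series. The KO call of Ccnb1 also ended without KO day 7 replicate 1, 2 or 3 or KO day 14 replicate 3. That of Top2a ended without KO day 7 replicate 1 or 3 or KO day 14 replicate 3, and with the replicate block. Of the 5 called in WT, Birc5 alone was called without WT day 14 replicate 3. Plk1 and Cdc20 were higher in KO than in WT at day 14 (log2 2.51 ± 0.55 and 2.33 ± 0.44, adjusted p = 0.0362 and 0.0209, beside 1.42% of all genes called). Both calls ended without WT day 14 replicate 1 or 2 or KO day 14 replicate 3, and that of Plk1 without any 1 of 7 day 7 libraries (all but KO replicate 4). The part of cell division in the Mxd3 differences was not tested.

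**Figure D2:**
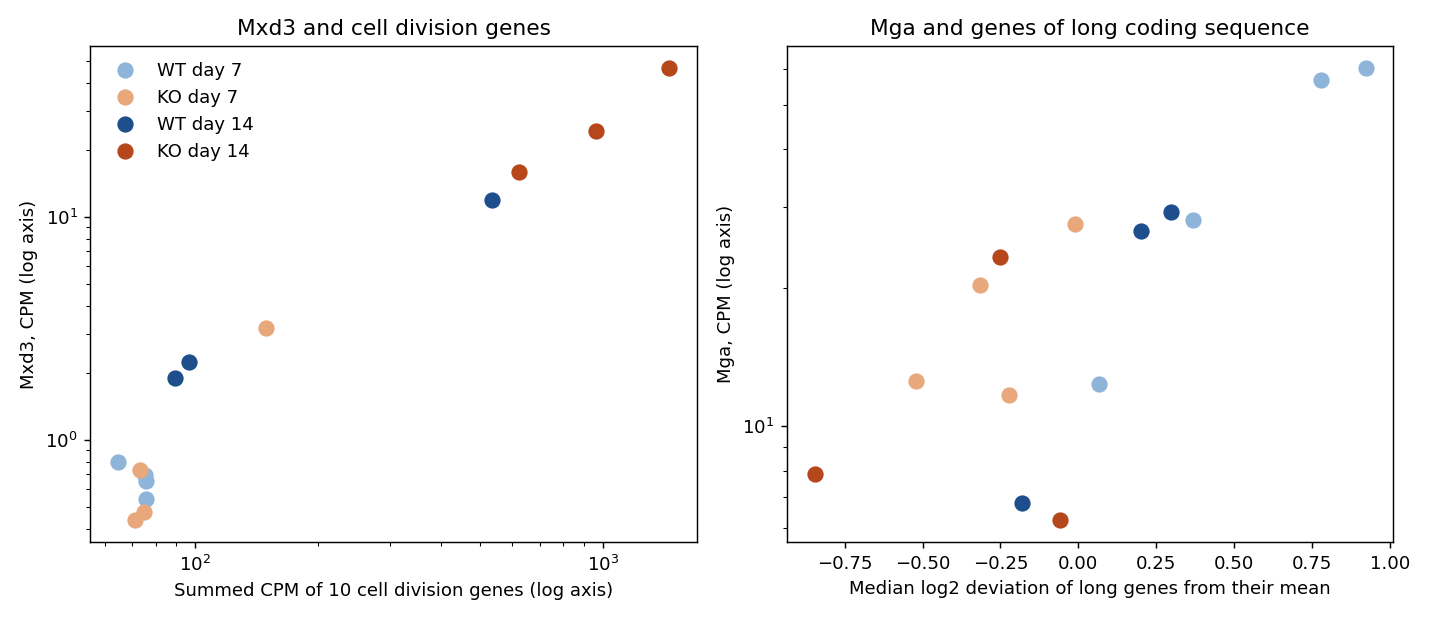
Left, Mxd3 CPM against the summed CPM of 10 cell division genes, both on log axes; right, Mga CPM (log axis) against the median log2 deviation of 478 genes of long coding sequence from their mean over libraries; points are libraries. Mxd3 is at 11.9 to 46.3 CPM only in the 4 libraries with division sums of 533 to 1454 CPM, and Mga is highest, at 60.0 and 56.6 CPM, in the 2 libraries with the highest long-gene deviation.

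The other MAX-binding repressors differed less. Mxd4 had 16.4 to 41.2 CPM over the 14 libraries, overlapped in every comparison and had fitted log2 differences between -0.02 and 0.16. Mxi1 had 28.2, 36.1, 39.9 and 46.6 CPM in WT day 7, 48.7, 43.6, 42.1 and 52.4 CPM in KO day 7, 42.7, 41.9 and 34.0 CPM in WT day 14, and 29.7, 29.9 and 26.5 CPM in KO day 14. The KO day 14 libraries lay below those of KO day 7 and of WT day 14. Mxi1 fell 1.63-fold with day in the KO (log2 -0.70 ± 0.20, adjusted p = 0.0293), and the call ended with any 1 of 5 libraries left out: KO day 7 replicate 1, 2 or 3 (adjusted p = 0.0665, 0.0503 and 0.0509) or KO day 14 replicate 2 or 3 (0.0719 and 0.104). Its KO over WT difference at day 14 was -0.46 ± 0.21 (adjusted p = 0.227). Of the 885 coding bases of Mxi1, 163 also belong to the annotated gene Gm10197 on the opposite strand, and the sources used here do not say whether counting used strand.

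Mnt was low throughout, with 20 to 172 counts per library. It had 4.79, 3.51, 2.23 and 2.13 CPM in WT day 7 and 1.46, 0.980, 0.627 and 1.06 CPM in KO day 7, where the groups did not overlap. At day 14 the range was 1.39 to 4.51 CPM in WT and 1.06 to 5.57 CPM in KO, which overlapped. The day 7 log2 difference was -1.62 ± 0.56 (adjusted p = 0.154).

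Mga varied widely within groups. WT day 7 libraries had 60.0, 56.6, 28.1 and 12.3 CPM, KO day 7 libraries 11.7, 27.6, 20.3 and 12.5 CPM, WT day 14 libraries 26.6, 6.81 and 29.3 CPM, and KO day 14 libraries 23.4, 6.26 and 7.87 CPM. All 4 comparisons overlapped and none passed the test. At 9129 counted bases Mga is the longest of the 10 genes, and genes of long coding sequence (5000 bases or more, 478 genes) also differed between libraries. Their median log2 deviation from each gene's mean was 0.92 and 0.78 in the 2 WT day 7 libraries with the most Mga, and between -0.85 and 0.37 in the other 12. The genes most like Mga were Taok1 (r = 0.990), Trip11 (0.983) and Rapgef6 (0.982). The part of transcript length in these values was not tested.

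Mlx had 43.9 to 76.7 CPM, overlapped in every comparison and had fitted log2 differences between 0.17 and 0.22. Over the 14 libraries it ran against Mga (r = -0.901), the strongest of the 45 correlations between members. Of its textbook targets, Txnip, an inhibitor of glucose uptake, fell with day in WT (log2 -1.65 ± 0.31, adjusted p = 0.00202) and in KO (-1.39 ± 0.31, 0.00743, a call that ended with the series term), and Arrdc4 did not pass in any comparison. Mlxip, which encodes a MONDO partner of MLX, had group means of 70.7 to 92.9 CPM and did not pass either.

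**Figure D3:**
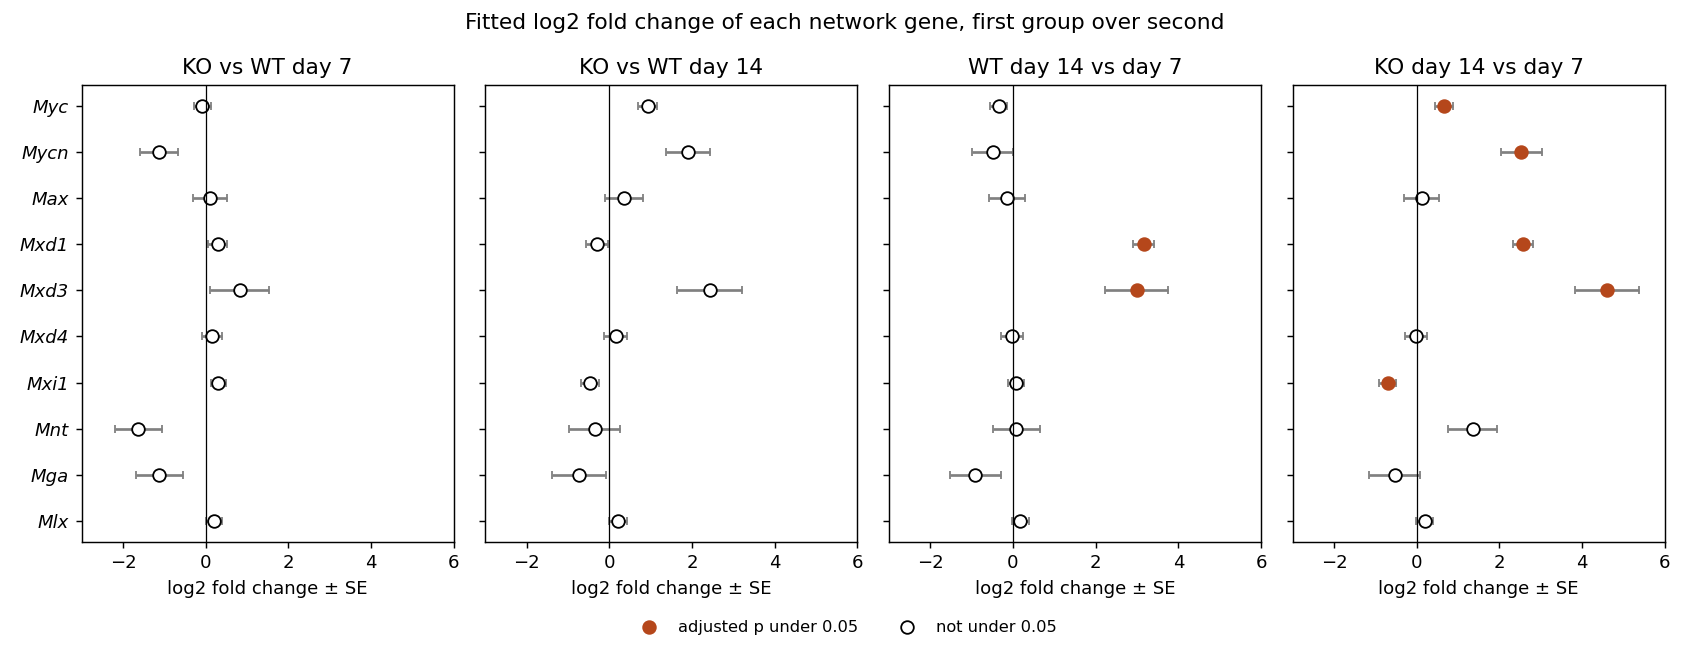
Fitted log2 fold change ± SE of the 10 genes in 4 comparisons, the first group named over the second; filled points have an adjusted p under 0.05. Mxd1 and Mxd3 are filled and to the right in both day comparisons, and no point is filled in the 2 genotype comparisons.

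Counted over the network, no member passed an adjusted p of 0.05 between genotypes. At day 7 it was 0 of 10, beside 0.0949% of all genes tested, and DESeq2 and limma-voom called 0. Under an unadjusted p of 0.05 were 2 members, beside 2716 of the 11591 genes tested. At day 14 the count was 0 of 10 beside 1.42% of all genes, with 4 members under an unadjusted p of 0.05, beside 2515 of the 11591 genes tested. DESeq2 and limma-voom each called 3 members there (Myc, Mycn and Mxd3), beside 993 and 404 of all genes. From day 7 to day 14, 2 members rose in WT, beside 20.5% of all genes called, and 4 rose and 1 fell in the KO, beside 15.5%. With a term for the identifier series, Mxd1 alone stayed called in each day comparison, and the KO adjusted p was 0.113 for Myc, 0.244 for Mycn, 0.0953 for Mxd3 and 0.504 for Mxi1. That term is estimated from WT libraries only, so it cannot show how far series enters the KO differences.

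Groups without overlap were found for 2 members at day 7 (22.2% of all genes), 4 members between genotypes at day 14 (15.0%), 2 members with day in WT (31.0%) and 5 with day in the KO (23.8%). Because the members were chosen with these levels in view, nothing is read from the counts. The 4 comparisons share groups with each other. Whether the day difference itself differed between genotypes was tested with an interaction term, which called 0 of 10 members beside 0.0863% of all genes. Myc (log2 1.01 ± 0.30, adjusted p = 0.281), Mycn (3.02 ± 0.71, 0.151) and Mxi1 (-0.77 ± 0.28, 0.450) were the 3 members under an unadjusted p of 0.05, beside 924 of the 11591 genes tested. DESeq2 called 1 member, Mycn, beside 163 of all genes, and limma-voom called 0 members. With the GC and length trend removed the Myc interaction was 1.26 with an adjusted p of 0.0135. Without WT day 14 replicate 3 the Mycn interaction was 3.84 with an adjusted p of 0.0104. Over the alternatives that give a p, the Myc interaction was called in 1 of 24 and that of Mycn in 2 of 23. Their adjusted p ran up to 0.524 for Myc and 0.389 for Mycn.

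Summed per length, activators and MAX-binding repressors stood in different proportions in the groups. Myc plus Mycn came to 163 to 198 RPKM in WT day 7 and 141 to 206 in KO day 7, against 38.6 to 46.4 and 45.1 to 55.2 RPKM for Mxd1, Mxd3, Mxd4, Mxi1 and Mnt together. At day 14 the activators came to 183, 176 and 113 RPKM in WT and 243, 379 and 295 in KO, against 119, 127 and 100.3 and 125, 119 and 108 RPKM for the repressors. The ratio was 4.22 to 4.70 in WT day 7, 2.56 to 4.57 in KO day 7, 1.12 to 1.55 in WT day 14 and 1.94 to 3.18 in KO day 14. It was thus lower at day 14 in every library of each genotype, except that KO day 7 replicate 4 (2.56) lay within the KO day 14 range. Mxd1 made up 15.8% to 21.2% of the repressor sum at day 7, 62.4% to 65.8% in WT day 14 and 43.3% to 58.5% in KO day 14, where Mxd3 held 9.58% to 28.5%. These are RNA levels, and protein was not measured here.

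**Figure D4:**
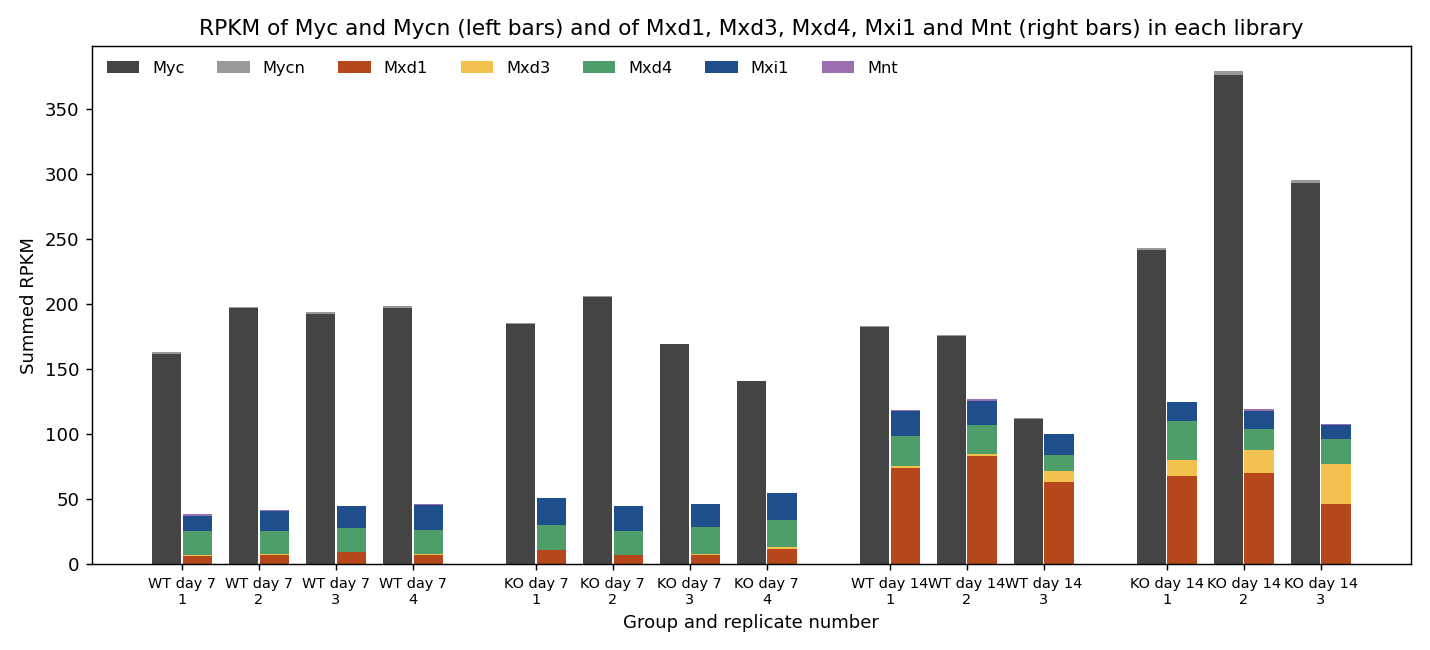
Stacked RPKM in each library, with Myc and Mycn in the left bar and Mxd1, Mxd3, Mxd4, Mxi1 and Mnt in the right bar. The repressor sum is 38.6 to 55.2 RPKM at day 7 and 100.3 to 127 RPKM at day 14, with Mxd1 as its main part at day 14.

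Textbook targets of MYC were described as other genes of the pathway, in 4 lists that together hold 60 genes, all of which entered the fit. The lists were chosen with earlier results of these data known, so their counts are a description. Between genotypes at day 7, 0 of the 60 passed, beside 0.0949% of all genes, and DESeq2 and limma-voom called 0. Under an unadjusted p of 0.05 were 9 targets, beside 2716 of the 11591 genes tested. At day 14, 2 rose in KO over WT, beside 1.42% of all genes. These were Odc1, the first enzyme of polyamine synthesis (91.1 ± 9.58 CPM in WT and 264 ± 70.8 in KO, n = 3 each, log2 1.53 ± 0.26, adjusted p = 0.0116), and Cdkn2c, a CDK inhibitor listed as repressed by MYC (10.6 ± 1.12 and 37.7 ± 6.83 CPM, log2 1.83 ± 0.22, adjusted p = 0.00144). Both calls ended in a fit of the compared libraries alone, which called 0 genes, and that of Odc1 also without WT day 14 replicate 1 or 2 or KO day 14 replicate 3. The median log2 difference was 0.44 over the 53 induced targets and 0.21 over the 7 repressed ones, beside 0.0085 over all genes. Without WT day 14 replicate 3 the count of targets called was 16, while the count over all genes went from 165 to 2640. It was 13 without KO day 14 replicate 1, and 1 without WT day 14 replicate 1 or 2 or KO day 14 replicate 3.

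By role, the 23 targets of metabolism had a median log2 difference of 0.53 between genotypes at day 14, the 10 of the cell cycle 0.46 and the 20 of ribosome making 0.21. Their single called gene at day 14 was Odc1. Highly expressed targets did not pass: Ldha had 2535 ± 247 CPM in WT day 14 and 3619 ± 1294 in KO day 14, Ccnd2 had 801.5 ± 456 and 1086 ± 245 CPM, and Cdk4 had 450 ± 26.4 and 629 ± 193 CPM. Ubtf, a ribosomal RNA transcription factor, stood at 709.7 ± 156 and 421 ± 77.1 CPM, opposite in sign to its list's median (log2 -0.75 ± 0.22, adjusted p = 0.0901).

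With day, 7 targets rose and 1 fell in WT, and 13 rose and 2 fell in the KO, beside 20.5% and 15.5% of all genes. The WT count of 8 was 14 without WT day 14 replicate 3 and 4 or 5 without any 1 WT day 7 library. Of those 14, 6 rose and 8 fell, beside 1695 and 1844 of all genes in that fit. The KO count of 15 was 25 without KO day 14 replicate 1, 9 without replicate 3 and 4 (Mthfd2, E2f1, Odc1 and Cdkn2c) with a term for the identifier series. Mthfd2, an enzyme of mitochondrial folate metabolism, rose from 34.2 ± 4.07 to 81.5 ± 29.7 CPM in WT (log2 1.25 ± 0.27, adjusted p = 0.00416) and from 43.1 ± 8.14 to 139 ± 46.0 CPM in KO (1.69 ± 0.27, 0.000792). E2f1, of the S phase programme, rose in both, by log2 1.16 in WT and 2.01 in KO. Mcm5, of the same programme, rose in KO by log2 2.89. Its WT difference was 1.35 with an adjusted p of 0.0409, from day 14 libraries at 116, 121 and 332 CPM, and this call ended without WT day 14 replicate 3, without any 1 of the 8 day 7 libraries, with limma-voom, with the replicate block and with the series term. Slc7a5, an amino acid transporter, rose in both (log2 1.41 and 2.05), a WT call that ended without WT day 7 replicate 1, 2 or 4 or WT day 14 replicate 1 or 2 and with the replicate block. In the fit of all libraries only Wdr12 passed among ribosome-making targets, and it fell in both (log2 -1.22 and -1.56). Cdkn1a, the CDK inhibitor p21 and a target repressed by MYC, rose from 16.1 ± 9.83 to 362 ± 24.8 CPM in WT (log2 4.50 ± 0.68, adjusted p = 0.000406) and from 56.4 ± 56.1 to 259 ± 129 CPM in KO (2.20 ± 0.63, 0.0280). The KO call ended without KO day 7 replicate 1, 2 or 3 or KO day 14 replicate 3 and with the series term, and DESeq2 gave Cdkn1a no adjusted p. Under upper quartile scaling the median of all genes in the WT day comparison moved from -0.0020 to 0.11 on the log2 scale, and all 8 targets called in WT were called again under each of the 3 other scalings.

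**Figure D5:**
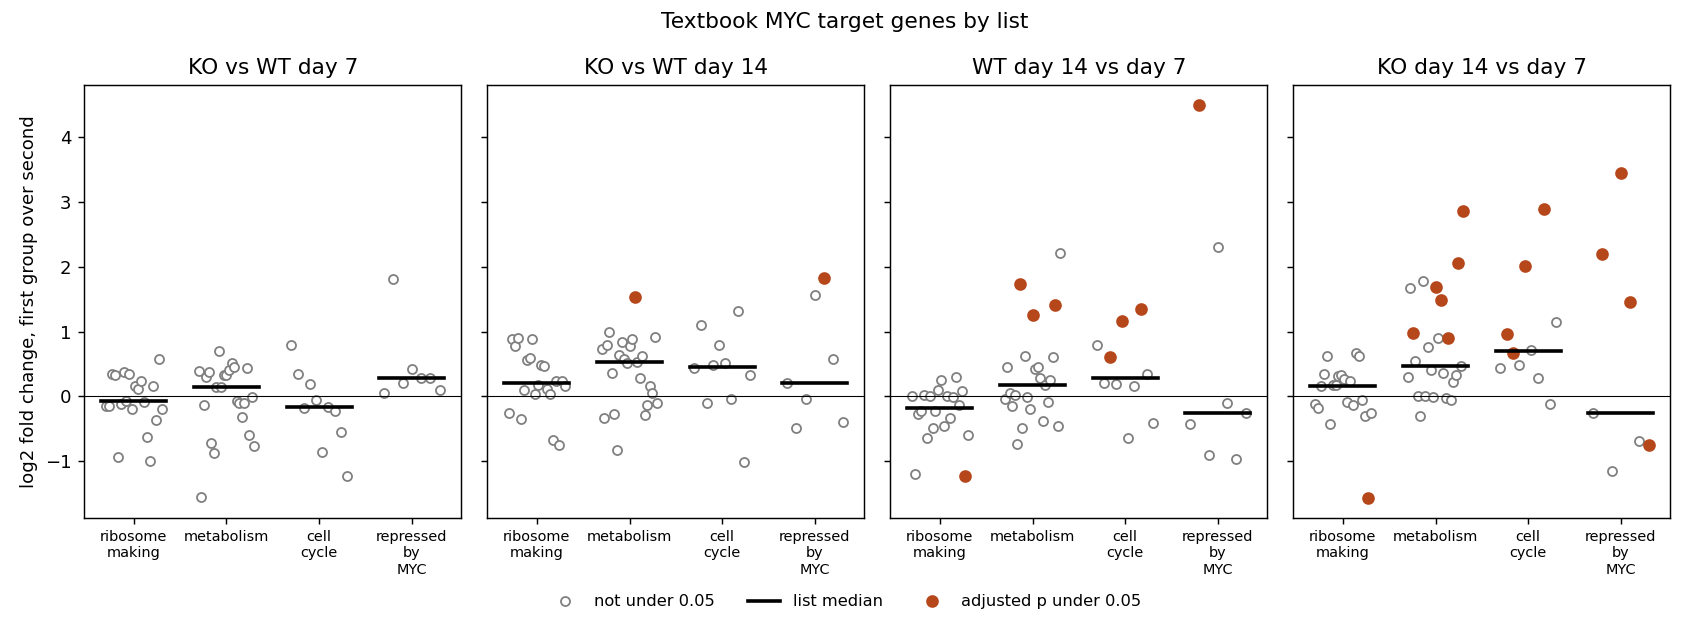
Log2 fold change (vertical axis) of the 60 MYC target genes in 4 comparisons, by list; filled points have an adjusted p under 0.05 and black bars are list medians. At day 14 the KO over WT medians of the 4 lists are 0.21, 0.53, 0.46 and 0.21, with 2 filled points.

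The cofactors of the network were described from fixed lists, and their counts stand beside calls for 0.0949% of all genes between genotypes at day 7, 1.42% at day 14, 20.5% with day in WT and 15.5% with day in the KO. Of 12 corepressor genes, Hdac1, the deacetylase recruited by MXD proteins through SIN3, was lower in KO at both days: 48.2 ± 8.27 CPM in WT and 7.27 ± 1.17 in KO at day 7 (log2 -2.73 ± 0.27, adjusted p = 0.000327), and 38.8 ± 15.5 and 6.34 ± 1.15 CPM at day 14 (-2.61 ± 0.31, 0.00128). It was the only one of the 12 to pass between genotypes, and its day 14 call ended in the fit of the compared libraries alone. The cause of the lower Hdac1 in KO was not tested, and its position relative to the Argonaute genes was not examined here. With day in WT, Sap30 rose (log2 1.33 ± 0.34, adjusted p = 0.0127) and Sin3a, the scaffold itself, fell (-0.95 ± 0.30, 0.0394). The Sap30 call ended without WT day 14 replicate 3, and the Sin3a call without any 1 of 7 libraries: WT day 7 replicate 1, 2 or 4, KO day 7 replicate 1 or 3, or WT day 14 replicate 1 or 2. Of 14 coactivator genes none passed edgeR's test between genotypes. Under an unadjusted p of 0.05 were 4 at day 7 and 1 at day 14, beside 2716 and 2515 of the 11591 genes tested. With day in WT, 3 fell, the acetyltransferase Crebbp (log2 -1.46 ± 0.22, adjusted p = 0.000394), Ep400 (-0.69 ± 0.17, 0.00842) and the MYC cofactor Trrap (-0.99 ± 0.24, 0.00896), and in the KO Crebbp and Ep400 fell. The Ep400 call in WT ended with the GC and length trend removed, and that in the KO ended in 19 of 25 alternative analyses, 11 of which left out 1 library (any except KO day 7 replicate 4, WT day 14 replicate 3 and KO day 14 replicate 1).

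Of 12 genes that control the stability of MYC proteins, Usp28, a deubiquitinase that counters the ligase FBXW7, fell with day in WT from 56.0 ± 6.91 to 9.01 ± 2.69 CPM (log2 -2.64 ± 0.44, adjusted p = 0.000813) and in KO from 32.4 ± 12.3 to 11.6 ± 6.28 CPM (-1.48 ± 0.42, 0.0272). The KO call ended without KO day 7 replicate 1 or 2 or KO day 14 replicate 2 or 3. Huwe1 and Gsk3b also fell in WT, with calls that ended in 7 and 15 of the 25 alternatives, among them those without any 1 of WT day 7 replicates 1 to 3 or WT day 14 replicates 1 and 2 (for Gsk3b also WT day 7 replicate 4 and KO day 7 replicates 1 to 3). They did not pass in the KO, and the interaction passed for none of the 12. Aurka, which stabilises MYCN, rose in WT (log2 1.96 ± 0.50, adjusted p = 0.0129) and KO (3.37 ± 0.52, 0.000684), and Skp2 rose in KO (1.34 ± 0.34, 0.0138). The Aurka call in WT ended without WT day 14 replicate 3, and the Skp2 call without KO day 14 replicate 3. Of 9 genes of the MGA-containing Polycomb complex, 8 entered the fit and Tfdp1 rose with day in KO (log2 1.34 ± 0.33, adjusted p = 0.0126), a call that ended without KO day 14 replicate 2 or 3. With the series term, the KO calls of Ep400, Usp28, Aurka, Skp2 and Tfdp1 ended, as did the WT calls of Sap30, Gsk3b and Aurka.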

How the data were processed

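RNA-seq of 14 libraries was analysed from deposited tables that give, for each of 22598 coding genes, a count, a counted width in bases and an RPKM. Per the submitters' processing notes, reads were aligned with GSNAP to GRCm38; the sources used here name no counting tool or strand setting. The deposited counts were whole numbers per gene. The authors' deposited RPKM implied library totals of which the tables' counts made up 38.9% to 44.9%. Ensembl IDs were paired with symbols for 22457 genes.

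Genes were kept by edgeR's filterByExpr (11591), scaled by TMM and tested with edgeR 4.0.16 (quasi-likelihood, robust) in R 4.3.3, in 1 fit of all 14 libraries with a mean per group, for 5 comparisons. P-values were Benjamini-Hochberg adjusted over all genes tested, with a call at 0.05, and the common biological coefficient of variation was 0.354. CPM use TMM-scaled totals. The steps were tested on simulated data. DESeq2 1.42.0 and limma 3.58.1 (voom) were alternatives, beside other scalings and filters, fewer libraries, a replicate block, the identifier series as a term, and a GC and length trend.

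The text names the 10 members, Ago1, up to 4 called genes of smallest adjusted p and the 2 of highest mean CPM in each of 17 lists, and the 3 genes most correlated with a member; a count of 5 or fewer also names its genes. Not every gene this rule allows is printed. The members and lists were chosen with earlier results of these data known. Promoters are from RefSeq (GRCm38.p6). Coding sequences of members were compared with all GENCODE transcripts, and Mxi1 alone shared at least 100 bases at 95% identity or more with another gene. Naive cells at day 0 were not analysed here.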

Additional observations from a re-analysis of the deposited data

Results flagged for a closer look

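Mxd3 in KO day 7 replicate 4 had 3.19 CPM, far from the other 3 libraries of its group (0.439 to 0.731 CPM), a gap of 0.894 of the group's range, above Dixon's 95% critical value. Groups of 4 libraries were examined for the 10 members and Ago1, 21 sets of values in all, and chance marks about 1 in 20 such sets. The same library had the highest sum of cell division genes of its group, 150 CPM.

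Kit, a mast cell marker, differed between genotypes in its day difference, by an interaction log2 of 8.23 (edgeR quasi-likelihood, adjusted p = 0.0370). It fell with day in WT, from 3.47 ± 1.99 CPM (n = 4) to 0.0660 ± 0.0622 (n = 3), and rose in the KO, from 1.14 ± 0.956 (n = 4) to 7.02 ± 4.33 (n = 3). The WT day 14 level rests on 6 counts in all, at most 4 in any library, so the size of this log2 is near the floor. The interaction call ended in 12 of the 24 alternative analyses that give a p, 10 of which left out 1 library.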

How the results depend on the processing

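Of 1305 recomputed member values over 27 alternatives, 1267 moved by less than their spread, 38 by more, and 0 called values changed sign. Of 372 counts of calls, 292 stayed within 1.5 times. For KO against WT at day 14, genes called (165) were 248 with no scaling, 106 with a filter of 5 CPM in 3 libraries, 0 with only the compared libraries, 993 with DESeq2, 404 with limma-voom, 79 with the identifier series as a term and 451 with the GC and length trend removed. Members called there (0) were 1 with no scaling, 3 with DESeq2, 3 with limma-voom and 1 with the GC and length trend removed, and targets (2) were 0 with only the compared libraries, 8 with DESeq2 and 5 with the trend removed. At day 7, genes called (11) were 6 with the stricter filter, 512 with DESeq2 and 19 with the trend removed. For the interaction, genes (10), members (0) and targets (0) were 163, 1 (Mycn) and 1 with DESeq2 and 60, 1 (Myc) and 1 with the trend removed, and genes were 1 with the series term. With day in the KO, the series term gave 370 genes, 1 member and 4 targets, and with day in WT 1 member. The trend removal gave 2878 genes with day in the KO, and 3611 genes and 21 targets (9 rose and 12 fell) in WT. The cause of these changes was not tested. No consistent pairing by replicate number was seen: correlations of same-numbered libraries ran from -0.577 to 0.611. At most 1 library per comparison correlated best with its own number. With 3 or 4 libraries per group, these correlations cannot exclude a pairing. With the replicate block, members called with day in the KO were 3 instead of 5. Leaving out 1 library gave, at day 14, 42 to 2640 genes, 0 to 3 members and 1 to 16 targets, and for the interaction 1 to 380 genes, 0 to 1 members and 0 to 3 targets. With day, it gave 1 to 2 members and 4 to 14 targets in WT, and 1061 to 2420 genes, 3 to 5 members and 9 to 25 targets in the KO. The highest counts between genotypes and for the interaction came without WT day 14 replicate 3. Low counts limit Max (30 to 112 counts per library), Mnt (20 to 172) and, at day 7, Mxd3 (14 to 72).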

Other observations

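Among the other members, the genes most like each over the 14 libraries, by Pearson r of log2(CPM + 0.5), were as follows, with no test. Myc was most like Cdt1, a replication licensing factor (r = 0.882), Mbd3 (0.880) and Arl2bp (0.863). Mxd1 was most like Eno2 (0.986), Tnfsf14, a TNF-family ligand of T cells (0.983), and Mmp9, a secreted protease (0.981). Mxi1 was most like Cdkn1c (0.910), Ppp1r15a (0.901) and Dusp2 (0.883), Mxd4 like Sla2 (0.941), Rnf166 (0.939) and Dusp28 (0.881), and Mlx like Uqcc1 (0.950), Imp4 (0.919) and Pgam5 (0.903). Between members, Mxd1 and Mxd3 correlated at 0.758, Mycn and Mxd3 at 0.657, and Mycn and Mxi1 at -0.794.

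Promoter letters were also counted in the target lists. CACGTG was found for 8 of 19 metabolism targets with a promoter window, 1 of 16 ribosome-making targets, 1 of 7 cell cycle targets and 0 of 6 repressed targets, beside 6.86% of all 27025 genes with a window. The E2F letters were found for 2 of 7 cell cycle targets, 3 of 16 ribosome-making targets, 1 of 19 metabolism targets and 0 of 6 repressed targets, beside 1.51% of all genes.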
